A study of Mus musculus with 4 samples.

Results

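The genes described are 10 imprinted genes at several loci: Mest, Sgce, Peg10, Impact, Snrpn, Peg12 and Nnat, read mainly from the paternal copy, and Igf2r, Grb10 and Gnas, read from the maternal copy in most tissues. They were taken from a list of names and are 10 of the 45706 genes in the deposited count table. All 10 passed the filter on low counts, which kept 18005 genes. RNA was measured by polyA-selected, stranded sequencing with single 50 nt reads in mouse embryonic stem cells of the V6.5 line. The 0 h group (2 libraries, A and B) holds cells labelled KLF WT, and the 24 h group (2 libraries, A and B) holds cells labelled KLF KO, collected 24 h after doxycycline was added. The cells came from puromycin-selected clonal lines in which doxycycline, through rtTA, switches on Cas9 joined to GFP by a P2A peptide. The guide RNAs described target either KLF4 by itself or 3 genes in tandem, KLF2, KLF4 and KLF5. Titles carry the abbreviation TKO, those at 24 h name a KLF4 knockout and those at 0 h name WT ESCs, so the guides that each library carried are uncertain. All cells grew on irradiated feeders in 15% serum with LIF at 1000 U/ml, MEK inhibitor at 1 µM and GSK3 inhibitor at 3 µM. Doxycycline, Cas9 cutting, loss of KLF protein and 24 h in culture share 1 contrast and cannot be told apart.

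An imprinted gene is transcribed mainly from the copy inherited from 1 parent, because a control region near it carries DNA methylation that was set in the egg or the sperm. After fertilisation the zinc-finger protein ZFP57 and its partner TRIM28 hold that methylation in place. Many imprinted genes act in growth, metabolism and placental development, and embryonic stem cells are known to lose or relax imprints in culture. Reads here were counted per gene and not per allele, so the values give the summed output of both copies. Gnas is a special case, since its locus makes transcripts of both parental origins that share exons.

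KLF2, KLF4 and KLF5 are zinc-finger transcription factors of the naive pluripotency network that bind GT-rich boxes. The promoter sequences of Mest, Grb10 and Peg12 are shown because the values of these genes were lower in both 24 h libraries and because their promoters differ in which of 2 short motifs they hold. Values of Gnas, Peg10 and Snrpn were also lower in both 24 h libraries, and no sequence is printed for them. The motifs are GGGNGTGG, a KLF-type GT box, and TGCCGC, the hexamer that ZFP57 recognises, each searched on both strands. They cannot overlap on the same strand, and on opposite strands could share at most 1 base. RefSeq promoters on GRCm38.p6 were matched for 7 of the 10 genes (16 entries, since several genes have more than 1 start), and no entry was matched for Sgce, Peg10 or Impact. Each window ran from 250 bases before the start to 50 after it. Of the bases before the start, all 250 are printed for Mest and the nearest 200 for Grb10 and Peg12. Below, the bases before the start are printed 5′ to 3′ on the gene's strand, with motif matches in capitals: Mest at chr6:30737800-30738049 (plus strand), Grb10 at chr11:12037421-12037620 (minus strand) and Peg12 at chr7:62464511-62464710 (minus strand).
Mest: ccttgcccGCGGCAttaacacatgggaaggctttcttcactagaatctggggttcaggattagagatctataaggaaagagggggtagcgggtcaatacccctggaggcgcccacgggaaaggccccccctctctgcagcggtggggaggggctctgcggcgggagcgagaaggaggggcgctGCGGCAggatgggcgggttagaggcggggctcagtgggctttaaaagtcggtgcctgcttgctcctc
Grb10: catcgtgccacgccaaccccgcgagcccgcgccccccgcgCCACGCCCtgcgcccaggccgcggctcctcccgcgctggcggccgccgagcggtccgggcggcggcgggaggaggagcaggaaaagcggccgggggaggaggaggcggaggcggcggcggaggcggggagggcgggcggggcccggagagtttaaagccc
Peg12: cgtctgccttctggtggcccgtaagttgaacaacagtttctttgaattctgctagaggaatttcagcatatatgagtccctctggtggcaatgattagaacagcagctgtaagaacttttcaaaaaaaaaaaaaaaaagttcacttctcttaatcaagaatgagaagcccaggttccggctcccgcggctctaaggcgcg

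The Mest sequence held TGCCGC, read on the other strand as GCGGCA, 67 and 242 bases before the start. The Grb10 sequence held CCACGCCC, a GT box on the other strand, 160 bases before the start, and the window held GGGGGTGG and GCGGCA past the start, 5 and 24 bases on. The Peg12 window held neither motif, nor did a further Mest entry (start at 30733506) and the other Grb10 entry (start at 12027971). Among the 16 entries, 3 held the GT box (a pair of Gnas starts and 1 of Grb10), against 17.6% of all 32851 promoters of the same length. TGCCGC was in 5 of the 16 (a pair of Mest starts 3 bases apart, and 1 each of Snrpn, Grb10 and Nnat), against 11.6% of all promoters. This hexamer holds a CpG, and those 5 windows held from 7 (Snrpn) to 45 (Grb10) CpG, against a median of 7 over all promoters. Whether the share differs from that in promoters of like CpG content was not tested. A match describes letters in a window, and no binding or methylation was measured.

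Libraries held 46031578 to 52412844 counts, and for a count of 0 the upper limit (3 counts, counting error only) was 0.0572 to 0.0652 CPM by library. CPM are counts scaled to a common library total, here with TMM factors. The 0 h replicates stood farther apart than the 24 h replicates: the SD of their log2 difference over genes was 0.52 at 0 h and 0.38 at 24 h. Across genes, which are not independent replicates, the difference between the 0 h replicates correlated with GC content (Pearson's r = 0.493), and that between the 24 h replicates did so less (r = 0.0622). The Klf genes targeted by the guides described were not past the edgeR quasi-likelihood test at the transcript level. In that test Klf5 had a log2 fold change of -0.72 (Benjamini-Hochberg adjusted p = 0.0567), Klf4 of -0.29 (0.223) and Klf2 of -0.25 (0.580). Klf5 was called lower by DESeq2 (adjusted p = 0.00148) and by edgeR with the trend on GC content and length removed (0.0128). Embryonic stem cell markers were present in every library (12 of 12 past the filter, 5930 to 5957 CPM summed at 24 h and 6576 to 6677 at 0 h). By edgeR 3 of them (Utf1, Pou5f1 and Zfp42) were lower at 24 h, where 2.65% of all genes tested were lower. With the trend on GC content and length removed, 7 of the 12 were lower and 0 higher, where 11.9% of all genes were lower. Of 26 markers of feeder fibroblasts 23 passed the filter and 1 was lower by edgeR (Pdgfrb, from 13.6 and 10.6 to 6.04 and 5.85 CPM). With that trend removed 2 of the feeder markers were lower and 2 higher. Summed, the feeder markers came to 3747 and 3050 CPM at 0 h, then 3000 and 2945 at 24 h, most of it from Fn1 and Sparc. Lum had 0 counts in 3 libraries and 4 in the last, and S100a4 had 0 to 4. Of 12 neural markers 10 passed and 4 were lower by edgeR (Stmn2, Ncam1, Tubb3 and Elavl3), with or without that trend removed. The summed level of the neural markers was 299 and 290 CPM at 0 h and 157 and 160 at 24 h. Dcx and Snap25 were at 0 in 3 of 4 libraries each. Whether feeder or neural transcripts took part in the results on imprinted genes was not tested, and in bulk RNA fewer cells of a type and less RNA per cell cannot be told apart.

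The 10 genes covered a 46-fold span of levels at 0 h, compared per kb of annotated exon (CPM per kb, mean ± SD, n = 2). Snrpn, whose product SmN is a core protein of splicing particles, was at 23.1 ± 0.416 CPM per kb and Igf2r, the receptor that takes up and clears the growth factor IGF2, at 22.8 ± 1.71. The libraries of these 2 genes overlapped, so their order was not resolved. Grb10, an adaptor that dampens insulin and IGF receptor signalling, followed at 16.6 ± 0.162, and Impact, an inhibitor of the stress kinase GCN2, at 14.4 ± 0.758. Peg10, a gene derived from a retrotransposon and needed in the placenta, was at 5.0 ± 0.0625 and overlapped with Gnas, which encodes the stimulatory G protein alpha subunit, at 4.60 ± 1.52. These 6 genes lay above the median gene tested (3.88 CPM per kb). Peg12, a relative of the GSK3-binding Frat proteins, was at 2.82 ± 0.131, Mest, which encodes a hydrolase-like protein of the endoplasmic reticulum, at 0.960 ± 0.00169, and Nnat, a small membrane proteolipid of brain and endocrine cells, at 0.795 ± 0.0848. Sgce, the epsilon-sarcoglycan of the dystrophin-associated complex, was lowest at 0.501 ± 0.0290. These lengths join all annotated exons, and the order moves with that choice. Per kb of the longest transcript, chosen after seeing the data, Grb10 was highest (29.9 ± 0.291), Gnas (13.03 ± 4.31) stood above Peg10 in both 0 h libraries and Nnat (1.00 ± 0.107) was lowest, below Sgce (1.20 ± 0.0696).

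**Figure D1:**
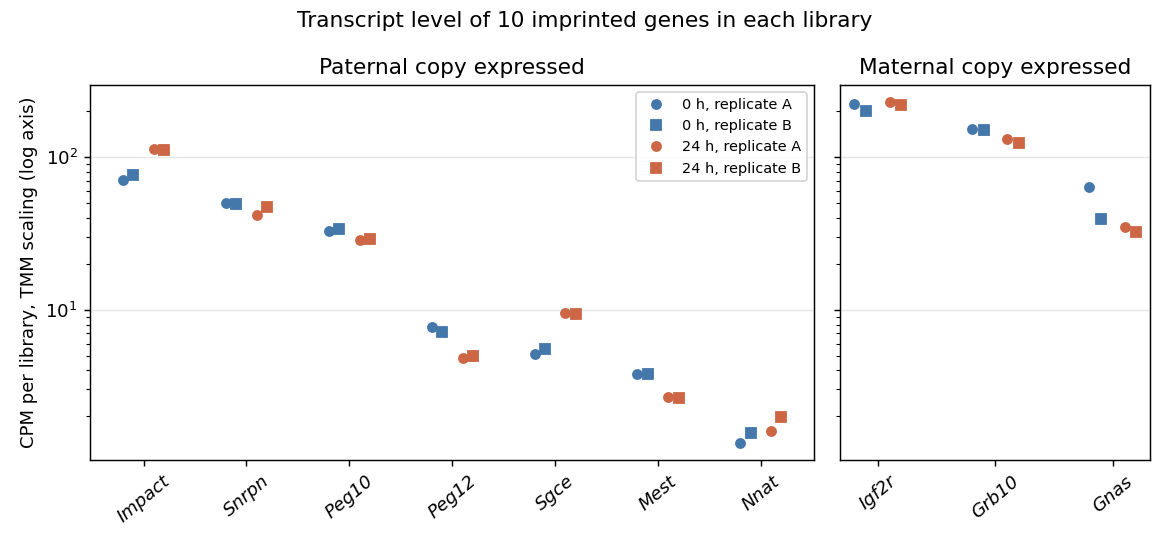
Level of each gene in each library, in CPM with TMM scaling on a log axis, with paternally expressed genes on the left and maternally expressed genes on the right. Each point is 1 library. The 24 h points of Impact and Sgce lie above both 0 h points, and 1 of the 0 h points of Gnas (63.5 CPM) stands above its other 3 libraries.

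At 24 h the order was Igf2r (24.2 ± 0.865 CPM per kb), Impact (21.9 ± 0.127), Snrpn (20.6 ± 1.84), Grb10 (14.1 ± 0.706), Peg10 (4.31 ± 0.0576), Gnas (3.02 ± 0.172), Peg12 (1.86 ± 0.0345), Nnat (0.983 ± 0.146), Sgce (0.888 ± 0.00652) and Mest (0.672 ± 0.00864). Impact and Snrpn overlapped at that time, as did Nnat and Sgce. Impact thus stood above Grb10 at 24 h and below it at 0 h in every library, and Sgce stood below Mest at 0 h and above it at 24 h. Both statements also held per kb of the longest transcript, where Impact was highest at 24 h (29.9 ± 0.174).

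Of the 7 paternally expressed genes, 2 rose at 24 h, Impact and Sgce, and 0 fell. Of the 3 maternally expressed genes 0 were called in either direction. The count over all 10 was 2 of 10, where the same test (edgeR, adjusted p under 0.05) called 6.80% of all 18005 genes, 4.15% as higher and 2.65% as lower. An unadjusted p under 0.05 was reached by 6 of the 10 (2 higher, 4 lower), against 25.8% of all genes. The libraries of the 2 groups did not overlap for 9 of the 10, all but Igf2r, against 58.8% of all genes tested. The median log2 fold change was -0.16 over the paternally expressed genes, -0.24 over the maternally expressed genes and -0.01 over all genes tested. Without 24 h replicate A the paternal median was -0.09 and the maternal median -0.31. Without 24 h replicate B they were -0.24 and -0.21. DESeq2's Wald test, which called 11.0% of all genes, called Impact and Sgce higher and Gnas lower, and limma voom, which called 6.03%, called Impact and Sgce alone.

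**Figure D2:**
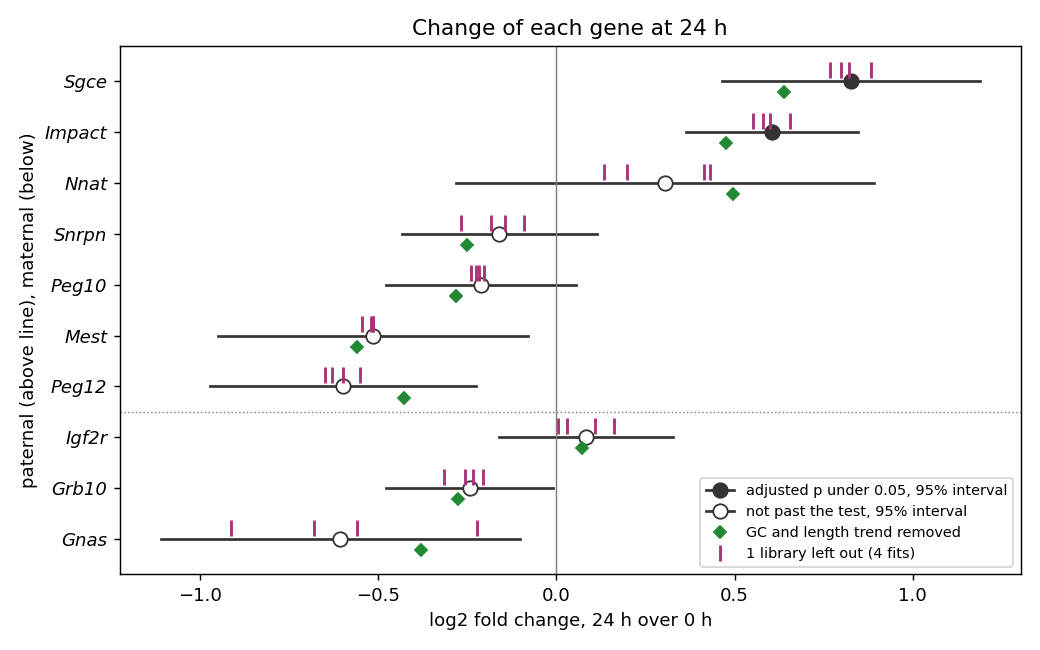
Log2 fold change of each gene at 24 h over 0 h with its 95% interval, with paternally expressed genes above the line and maternally expressed genes below it. The intervals of Impact (0.36 to 0.85) and Sgce (0.46 to 1.19) lie above 0 and these genes were called. Those of Peg12, Mest, Gnas and Grb10 lie below 0, but their adjusted p-values are 0.0726 to 0.183.

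Impact (chromosome 18, 12955852 to 12992950, plus strand) was at 71.1 and 76.6 CPM at 0 h and at 112.9 and 112.0 at 24 h. Both 24 h libraries lay above both 0 h libraries, and the replicates within a group were closer to each other than the groups were. The level rose 1.52-fold, a log2 fold change of 0.61 (SE 0.10, 95% interval 0.36 to 0.85) and the Benjamini-Hochberg adjusted p was 0.0209 in the edgeR quasi-likelihood test. IMPACT protein binds GCN1 and so keeps GCN2 from being switched on when amino acids run short, and it is abundant in neurons. The gene was read from 3600 and 3726 counts at 0 h and 5613 and 5243 at 24 h, so counting error was at most 1.67% in each library.

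Sgce (chromosome 6, 4674350 to 4747207, minus strand) was at 5.10 and 5.53 CPM at 0 h and at 9.48 and 9.38 at 24 h. The groups did not overlap, and the 24 h replicates were nearly level. The gene rose 1.77-fold (log2 fold change 0.83, SE 0.15, 95% interval 0.46 to 1.19), with an adjusted p of 0.0275 in the same edgeR test. It rested on fewer reads than Impact, with 258 and 269 counts at 0 h and 471 and 439 at 24 h. Both calls depended on the 24 h group having both of its libraries: without 24 h replicate A the adjusted p was 0.304 for Impact and 0.181 for Sgce, and without 24 h replicate B it was 0.309 and 0.172, where the lone 24 h library is assumed to vary like the 0 h group.

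**Figure D3:**
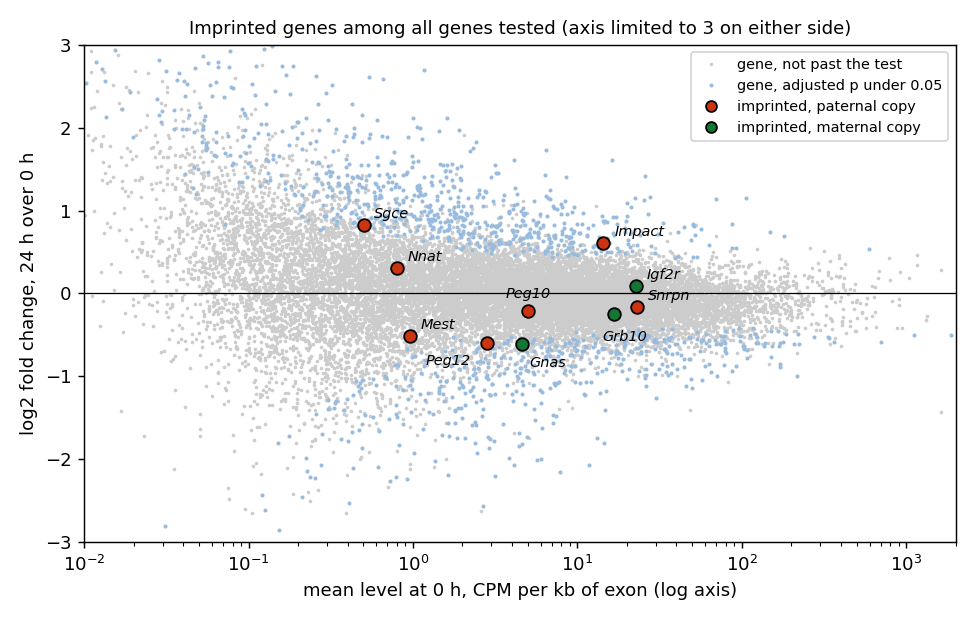
Log2 fold change at 24 h over 0 h against the mean level at 0 h in CPM per kb of exon (log axis, limited to 3 on either side of 0 in the log2 fold change), with small points for all genes tested (blue where the adjusted p was under 0.05, grey otherwise), paternally expressed genes in red and maternally expressed genes in green. Impact (0.61) and Sgce (0.83) stand highest among the 10, and the other 8 lie between -0.61 and 0.31.

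Peg12 (chromosome 7, 62461871 to 62464510, minus strand) was at 7.69 and 7.20 CPM at 0 h and at 4.85 and 4.98 at 24 h. Both 24 h libraries were below both 0 h libraries. Its log2 fold change was -0.60 (SE 0.16, 95% interval -0.97 to -0.23), and the adjusted p of 0.0726 in the edgeR test missed the threshold. PEG12, also called FRAT3, is an intronless member of the Frat family, whose proteins bind GSK3 and can raise beta-catenin levels, and the cells of both groups grew with a GSK3 inhibitor.

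Mest (chromosome 6, 30723547 to 30748465, plus strand) was at 3.79 and 3.78 CPM at 0 h and at 2.68 and 2.63 at 24 h. The replicates were close and the groups did not overlap. The log2 fold change was -0.51 (SE 0.19, 95% interval -0.95 to -0.08) and the adjusted p in the edgeR test was 0.142, from 123 to 192 counts per library. Part of its sequence is shared with another gene: 912 bases of Mest exon, 23.1% of the total, overlap exons of Copg2 on the other strand, and the strand setting of the counting is not given in the sources used here.

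The remaining paternally expressed genes were Peg10, Snrpn and Nnat, and none of these 3 was called. Peg10 (chromosome 6, 4747306 to 4760517, plus strand) was at 33.0 and 33.6 CPM at 0 h and 28.5 and 29.0 at 24 h, with a log2 fold change of -0.21, a 95% interval of -0.48 to 0.05 and an adjusted p of 0.283 by edgeR. Snrpn (chromosome 7, 59982495 to 60140219, minus strand) was at 50.4 and 49.1 CPM at 0 h and 41.7 and 47.3 at 24 h, a log2 fold change of -0.16 (95% interval -0.43 to 0.11, adjusted p = 0.418 in edgeR's test). For both genes the 24 h libraries were the lower ones, by a margin that for Snrpn was smaller than the gap between its 24 h replicates. Snrpn had -0.09 with 24 h replicate A left out and -0.27 with B left out. Nnat (chromosome 2, 157560078 to 157562522, plus strand) was at 1.34 and 1.56 CPM at 0 h and 1.61 and 1.99 at 24 h, a log2 fold change of 0.31 (95% interval -0.28 to 0.89, adjusted p = 0.472 in edgeR's test). With 68 to 93 counts per library, Nnat had the widest interval of the 10, and it spanned both directions, with a value of 0.13 when 24 h replicate B was left out.

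Among the maternally expressed genes, Gnas (chromosome 2, 174284320 to 174346744, plus strand) was at 63.5 and 39.4 CPM at 0 h and at 35.1 and 32.4 at 24 h. The 0 h replicates lay 0.69 apart on the log2 scale, the widest gap between 0 h replicates among the 10 genes, and 0 h replicate A was the high one. The log2 fold change was -0.61 (SE 0.21, 95% interval -1.11 to -0.10), with adjusted p-values of 0.136 in the edgeR test and 0.0323 in DESeq2's Wald test. Leaving out 0 h replicate A gave a log2 fold change of -0.22, and leaving out 0 h replicate B gave -0.91. The longest Gnas transcript is 57.8% G and C, and the 0 h replicates differed along GC content. For genes of like GC content, the log2 ratio of 0 h replicate A to B was 0.09 (Peg12, 57.0%) and -0.22 (Nnat, 58.6%). Whether GC content accounts for the Gnas gap was not tested. With the trend on GC content and length removed the log2 fold change of Gnas was -0.38 (adjusted p = 0.0304 in that edgeR test).

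Grb10 (chromosome 11, 11930508 to 12038683, minus strand) was at 152.3 and 150.2 CPM at 0 h and at 132.3 and 123.2 at 24 h. Both 24 h libraries were lower, by a small margin. The log2 fold change was -0.24 (SE 0.10, 95% interval -0.48 to -0.01), with an adjusted p of 0.183 in the edgeR test. Grb10 is maternally expressed in most tissues and paternally expressed in neurons, from another promoter.

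Igf2r (chromosome 17, 12682406 to 12769664, minus strand) was at 223.5 and 200.9 CPM at 0 h and at 230.6 and 219.2 at 24 h. The groups overlapped, and the log2 fold change was 0.08 (95% interval -0.16 to 0.33, adjusted p = 0.644 in the edgeR test). Its paternal copy is silenced by Airn, a long noncoding RNA transcribed from an Igf2r intron on the other strand, and in undifferentiated embryonic stem cells both copies are active before Airn is transcribed. Airn had 2 and 6 counts at 0 h and 3 and 3 at 24 h and did not pass the filter. The largest change that the Igf2r interval allows in either direction is 0.33 on the log2 scale. Without 0 h replicate A, the higher of the 0 h libraries, the log2 fold change of Igf2r was 0.16. Without 0 h replicate B it was 0.01.

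With each library's trend on GC content and transcript length removed, 6 of the 10 genes were called, where this setting called 23.5% of all genes, 11.6% as higher and 11.9% as lower. Impact (log2 fold change 0.47, adjusted p = 0.00336) and Sgce (0.64, 0.0121) were higher in that edgeR fit. Grb10 (-0.28, 0.0141), Peg10 (-0.28, 0.0285), Gnas (-0.38, 0.0304) and Mest (-0.56, 0.0406) were lower. The 4 others were not called: Peg12 had an adjusted p of 0.0603, Snrpn 0.0935, Nnat 0.211 and Igf2r 0.373. Over all genes this setting made 4223 calls, of which 49.4% were higher, against 1225 and 61.1% without it. When a 0 h library was left out, 1 library stood for 0 h and was assumed to vary like the 24 h group. Calls from those fits rest on the spread of the 24 h pair alone, so only effect sizes are given. All 10 genes kept their direction. Impact had 0.55 with 0 h replicate A left out and 0.66 with B left out, and Sgce had 0.77 and 0.88. In the same order, Peg12 had -0.55 and -0.65, Mest -0.51 and -0.52, Grb10 -0.23 and -0.26, and Peg10 -0.23 and -0.20. Gnas moved most, with -0.22 and -0.91.

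Sgce and Peg10 point away from each other on chromosome 6, with 98 bases between their annotated spans, and their control region lies at that shared promoter. Read counts of a pair of genes can be compared within a library, free of scaling between libraries. The ratio of Sgce to Peg10 counts stood at 0.154 and 0.165 at 0 h, and it was 0.333 and 0.323 at 24 h. Both 24 h ratios lay above both 0 h ratios, by 2.06-fold on average. With 2 libraries a group the smallest p that an exact 2-sided permutation test allows is 0.333, which this ratio and the 5 others computed all reached.

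**Figure D4:**
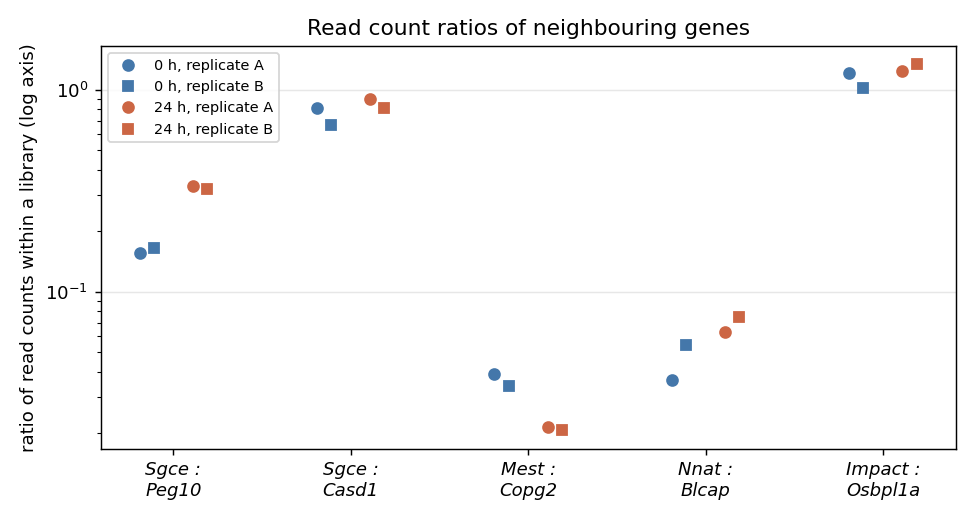
Ratio of the read counts of 2 neighbouring genes within each library, on a log axis, with 1 point per library. Sgce to Peg10 goes from 0.154 and 0.165 at 0 h to 0.333 and 0.323 at 24 h, and Mest to Copg2 goes from 0.0391 and 0.0341 to 0.0213 and 0.0206.

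The other pairs gave smaller shifts or the other direction. Mest to Copg2 went from 0.0391 and 0.0341 to 0.0213 and 0.0206, or 0.574 times its value at 0 h. Nnat to Blcap, the gene that has Nnat within its intron, went from 0.0364 and 0.0547 to 0.0633 and 0.0745, or 1.54-fold. Peg12 to Snrpn, both in the Prader-Willi region of chromosome 7, went from 0.152 and 0.147 to 0.116 and 0.105, or 0.740-fold. Sgce to Casd1 moved 1.16-fold and Impact to Osbpl1a 1.15-fold, the smallest shifts of the 6 pairs.

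The neighbours of the 10 genes gave 1 call among the 21 of 34 that passed the filter, a share near the 6.80% over all genes. With the trend on GC content and length removed, 4 were higher (11.6% of all genes). Asb4, an ankyrin-repeat gene 636 kb from Sgce that is imprinted in mouse, rose from 0.336 and 0.226 CPM at 0 h to 0.845 and 0.983 at 24 h. Its log2 fold change was 1.69 (SE 0.39, adjusted p = 0.0490 in edgeR's test), on 11 to 46 counts per library, and limma voom did not call it (adjusted p = 0.0526). The edgeR call was also lost when either 24 h library was left out (adjusted p of 0.114 without replicate A, 0.264 without B). Casd1, which acetylates sialic acids and lies 31.0 kb from Sgce, was at 6.32 and 8.25 CPM at 0 h and 10.6 and 11.6 at 24 h. Its log2 fold change was 0.61 (adjusted p = 0.0907 in edgeR's test and 0.0431 in DESeq2's). Osbpl1a, an oxysterol-binding-like gene 14.0 kb from Impact, was at 58.6 and 75.0 CPM at 0 h and 91.8 and 84.0 at 24 h, for a log2 fold change of 0.40 (edgeR adjusted p = 0.139), or 0.23 when 0 h replicate A was left out. Copg2, a coatomer subunit gene that overlaps Mest, was at 97.1 and 111 CPM at 0 h and 126 and 128 at 24 h, for a log2 fold change of 0.28 (edgeR adjusted p = 0.164), or 0.19 when 0 h replicate A was left out.

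**Figure D5:**
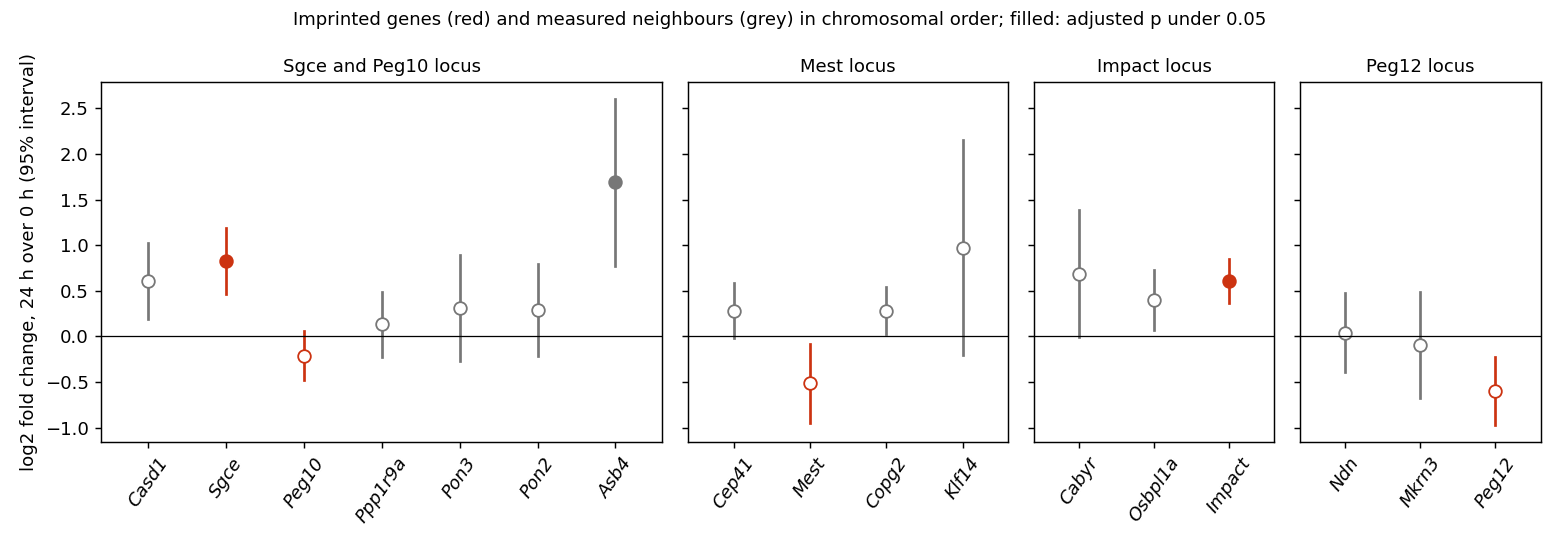
Log2 fold change at 24 h over 0 h with its 95% interval for imprinted genes (red) and their measured neighbours (grey) at 4 loci, in chromosomal order, with filled points for an adjusted p under 0.05. Sgce (0.83) and Peg10 (-0.21) lie side by side on chromosome 6 with opposite signs, and Asb4 (1.69) is the only neighbour shown with a filled point.

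An unadjusted p under 0.05 was reached by 4 of the 21 neighbours, against 25.8% of all genes. These 4 had positive log2 fold changes, while Mest beside Copg2 had a negative one. The median over the 21 neighbours was 0.14. Ndn and Mkrn3, paternally expressed genes on the same arm of the domain as Peg12, had log2 fold changes of 0.04 and -0.10, and Peg12 had -0.60. The intervals of Ndn (-0.40 to 0.47) and Mkrn3 (-0.68 to 0.49) were wide, and the difference from Peg12 was not tested.

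Further genes overlap the 10 and could share reads with them. Nespas, antisense to Gnas and sharing 988 exon bases (8.83% of the Gnas exons), had 40 to 60 counts and a log2 fold change of -0.22 (edgeR adjusted p = 0.668). Gm20721, also on the strand opposite Gnas and sharing 1469 bases, had 4 to 8 counts. Gm38393, on the same strand as Snrpn and sharing 589 exon bases (27.3%), had 183 to 293 counts, and Snurf, which shares 216 bases with Snrpn, was listed at 0. Reads of Snrpn may thus be split among these entries or left uncounted. Blcap shares no exon with Nnat and was at 36.9 and 28.6 CPM at 0 h and 25.4 and 26.7 at 24 h (log2 fold change -0.33, edgeR adjusted p = 0.221).

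Among genes for proteins that maintain imprints or act at imprinted loci, all 15 passed the filter and 0 were called by edgeR, DESeq2 or limma voom. An unadjusted p under 0.05 was reached by 3 of the 15, all with negative log2 fold changes, against 25.8% of all genes. The median over the 15 was -0.05. Zfp57 was at 498.5 and 572.7 CPM at 0 h and 425.2 and 436.7 at 24 h, for a log2 fold change of -0.31 (edgeR adjusted p = 0.124). Trim28, which recruits the silencing machinery to ZFP57, was at 2383 and 1755 CPM at 0 h and 1547 and 1484 at 24 h, for a log2 fold change of -0.45 (edgeR adjusted p = 0.115). That value was -0.21 when 0 h replicate A was left out. The 24 h libraries were below the 0 h libraries for both genes, with 0 h replicate A the highest for Trim28 only. Naa10, an acetyltransferase subunit linked to DNMT1 at imprinted loci, had a log2 fold change of -0.44 (edgeR adjusted p = 0.0930), and Smchd1, a chromatin protein that silences some imprinted genes, had 0.26 (0.225), or 0.13 when 0 h replicate A was left out. Once the trend on GC content and length was taken out, 5 of the 15 were lower and 0 higher, where 11.9% of all genes were lower. They included Zfp57 (-0.38, adjusted p = 0.00131), Naa10 (-0.44, 0.0141) and Trim28 (-0.18, 0.0188) in that edgeR fit.

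Imprinted genes at other loci, several of them sharing a locus, gave 0 calls in edgeR's test among the 19 of 24 that passed the filter. Of the 19, 5 had an unadjusted p under 0.05 (4 higher, 1 lower), against 25.8% of all genes. DESeq2 called 1 of them (Bcl2l1, lower) and limma voom 0, and the median log2 fold change was 0.08. With the trend on GC content and length removed, 5 of the 19 were called (4 higher, 1 lower), against 23.5% of all genes. Inpp5f, a phosphoinositide phosphatase gene, had a log2 fold change of 0.46 (edgeR adjusted p = 0.0841). Bcl2l1, which encodes the survival protein BCL-XL, had -0.47 (0.114), Smoc1, a matrix protein gene, had 0.37 (0.123) and Plagl1, a zinc-finger regulator of growth genes, had 0.28 (0.150). The value for Bcl2l1 was -0.25 when 0 h replicate A was left out.

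The genes that share the pathway of Peg12, the Frat family with GSK3 and its Axin scaffolds, gave 0 of 6 calls in edgeR, DESeq2 and limma voom. Of the 6, 1 had an unadjusted p under 0.05 (Axin1), against 25.8% of all genes. All 6 log2 fold changes were negative in the edgeR test, with a median of -0.36. With the trend on GC content and length removed, Gsk3a went from -0.08 to 0.17, and 1 gene was called (Gsk3b, lower). Axin1 had -0.30 (adjusted p = 0.176 in edgeR's test), Frat2 -0.48 (0.205) and Axin2, itself a target of beta-catenin, -0.42 (0.221). When 0 h replicate A was left out these values were -0.16, -0.28 and -0.14. Frat1 was at 1.19 and 0.247 CPM at 0 h and 0.241 and 0.235 at 24 h, for a log2 fold change of -1.58 (edgeR adjusted p = 0.223). Its 0 h replicate A, with 60 counts, stood alone, and the other 3 libraries had 11 or 12. Leaving that library out gave a log2 fold change of -0.05.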

How the data were processed

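Messenger RNA was sequenced in 2 libraries at 0 h and 2 at 24 h. The authors deposited raw read counts for each Ensembl gene. TopHat2, HTSeq, DESeq and mm10 are named without versions, per the submitters' processing notes. How strand was set in the counting, and with which annotation release, is not given in the sources used here. GENCODE M21 (GRCm38) gave symbols, coordinates, exon lengths and GC content. Identifiers without a symbol (563) held 0.107% of counts.

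Genes were filtered with filterByExpr (minimum count 10, minimum total 15), scaled by TMM and tested 2-sided over all 18005 genes by quasi-likelihood in edgeR 4.0.16 (legacy=TRUE, R 4.3.3) and Benjamini-Hochberg adjustment (threshold 0.05). Alternatives used other scalings and filters, DESeq2 1.42.0, limma 3.58.1 voom, the replicate letter as a block, a GC and length trend (mgcv 1.9.3), each library left out and, for levels, the longest transcript. The letters are not said to mark a shared clone, so no block was used. The series describes the replicates as biological, and p-values measure only the spread between these samples. The genes described, the lists beside them and the tests were chosen with earlier results of these data known. Named are all 10 genes, up to 4 per list in order of p, neighbours that overlap them, and Klf2, Klf4 and Klf5. Other genes, markers included, were chosen after their values were seen. Figures were drawn with matplotlib 3.10.9.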

Additional observations from a re-analysis of the deposited data

How the results depend on the processing

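Over the 10 genes and 14 alternatives, 109 of 140 results kept their direction and their side of the threshold, 27 passed it newly, 4 lost it (Impact and Sgce without either 24 h library) and 0 reversed. Those 27 include calls from the fits with 1 library at 0 h, which rest on the spread of the 24 h pair alone. Calls over all genes also rose in several settings, so the 27 are not a result about these genes. The log2 fold change ranged from 0.47 to 0.66 for Impact, 0.64 to 0.88 for Sgce, -0.65 to -0.42 for Peg12, -0.56 to -0.46 for Mest and -0.91 to -0.22 for Gnas. Igf2r ranged from 0.01 to 0.16, Nnat from 0.13 to 0.50, Snrpn from -0.27 to -0.09, Peg10 from -0.28 to -0.16 and Grb10 from -0.31 to -0.19. Over all genes, 1225 calls became 2589 with no filter, 1987 with DESeq2, 4223 with the GC and length trend removed, 5802 with that and the replicate block, and 505 to 9416 with 1 library left out. The paternally expressed genes went from 2 calls to 4 with the trend removed, where 23.5% of all genes were called. They had 6 with the trend removed and the replicate block, where 5802 of 18005 genes were called. The maternally expressed genes went from 0 calls to 1 with no filter and with DESeq2, 2 with the trend removed, alone or with the block, and 0 to 3 with 1 library left out. Calls also moved when 1 library was left out, where 1 group holds a single library, so only effect sizes are read there. The cause of these shifts was not tested. With the replicate block, 3253 of 18005 genes were called, 4 of the 10 among them (Impact, Sgce, Peg12 and Gnas, the last as the 1 maternally expressed call). The letters A and B share only a label: the replicate differences of the 2 groups correlated at 0.0453 across genes. Depth limits Nnat, Mest, Peg12 and Sgce most, with 68 to 471 counts per library.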
